A study of Homo sapiens with 5 samples.

Results

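The genes described here encode subunits of the transcription factor NF-kB and proteins that restrain it, measured in PC-3. This human cell line was derived from a bone metastasis of a prostate cancer and grows without androgen. The members were 10 genes chosen by name for their place in this pathway, with earlier results of these data known. Their values were read from every probe set on the array that carries the gene's symbol alone. Single-symbol probe sets were found for 8 of the 10 genes, 14 probe sets of 41097 on the array, and they belong to NFKB1, NFKB2, RELB, NFKBIA, NFKBIE, NFKBIZ, TNFAIP3 and TNIP1. BCL3 has probe sets that also carry a microRNA symbol, and no probe set is named BIRC3 in the annotation used, so neither gene was analysed here. The 5 arrays held PC-3 cells with a short hairpin RNA labelled shTRIB1-1, PC-3 cells with a different hairpin labelled shTRIB1-2, PC-3 cells with a control hairpin against GFP (shGFP), PC-3 cells grown as spheroids, and PC-3 cells grown flat (2D). The cells received no treatment beyond the hairpins or the culture form, per the labels. The sources used here do not give the method of spheroid culture, or say whether the hairpin lines were clones or pools. The study asked which genes depend on growth in 3 dimensions and which depend on TRIB1, a pseudokinase that links substrates to the ubiquitin ligase COP1.

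NF-kB is a family of dimers. In resting cells most dimers are held in the cytoplasm by IkB proteins, and signals from receptors for tumour necrosis factor, interleukin 1 or microbial products activate a kinase that marks the IkB protein for destruction, so that the dimer enters the nucleus. Several of the genes it then switches on encode its own subunits and its own brakes, such as IkB alpha and the ubiquitin-editing enzyme A20, and so their messenger RNA is widely read as a trace of pathway activity. PC-3 cells are known for constitutive NF-kB activity.

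RefSeq promoters (build GRCh38.p14) were listed for 8 of the 10 genes, BIRC3 and BCL3 among them and RELB and NFKBIE not, in 13 windows of 250 bases before a transcription start. Binding motifs of NF-kB were searched on both strands as GGGNNNTTCC and GGGNNNTCCC, where N is any base. At least 1 window held a match for 7 of these genes and 10 of the 13 windows held one, compared with 11.4% of 35116 windows of this length over all genes. The windows of BCL3 (1 window), and 1 window each of NFKB2 and TNIP1, held none. A match is a run of letters and not a measured binding site. The promoters of 4 members that had the largest differences between the spheroid and 2D arrays are printed here, 5′ to 3′ on the gene's strand, with the matched letters in capitals. TNFAIP3 and NFKBIA were higher in the spheroid array, and NFKBIZ and NFKB1 were lower.
TNFAIP3 (chr6:137867009-137867258, plus strand): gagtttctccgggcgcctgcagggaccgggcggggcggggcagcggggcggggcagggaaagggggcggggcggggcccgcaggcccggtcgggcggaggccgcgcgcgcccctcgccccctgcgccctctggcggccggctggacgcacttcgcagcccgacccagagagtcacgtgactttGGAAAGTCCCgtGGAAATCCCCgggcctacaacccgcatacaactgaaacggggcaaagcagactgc
NFKBIA (chr14:35404750-35404999, minus strand): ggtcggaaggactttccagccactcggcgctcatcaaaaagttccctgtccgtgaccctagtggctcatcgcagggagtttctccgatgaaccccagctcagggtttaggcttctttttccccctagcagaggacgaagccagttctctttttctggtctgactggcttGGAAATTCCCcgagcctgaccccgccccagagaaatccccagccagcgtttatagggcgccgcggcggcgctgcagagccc
NFKBIZ (chr3:101827740-101827989, plus strand, the first of 2 starts): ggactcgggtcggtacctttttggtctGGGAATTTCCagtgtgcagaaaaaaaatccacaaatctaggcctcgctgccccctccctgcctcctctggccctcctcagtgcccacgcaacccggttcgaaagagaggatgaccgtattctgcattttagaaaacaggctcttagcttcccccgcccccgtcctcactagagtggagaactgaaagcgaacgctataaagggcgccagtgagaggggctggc
NFKB1 (chr4:102501109-102501358, plus strand, the first of 2 starts): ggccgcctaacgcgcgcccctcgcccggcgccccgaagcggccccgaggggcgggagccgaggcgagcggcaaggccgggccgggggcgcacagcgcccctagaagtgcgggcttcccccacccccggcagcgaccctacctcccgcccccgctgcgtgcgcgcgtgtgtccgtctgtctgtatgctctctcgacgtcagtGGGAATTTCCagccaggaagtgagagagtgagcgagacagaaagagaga
TNFAIP3 held 2 matches, whose first bases lie 67 and 55 bases before the start, and NFKBIA held 1 at 81 bases. The matches of NFKBIZ and NFKB1 began 223 and 49 bases before the start and have the same 10 letters. Members whose signal was higher and members whose signal was lower in the spheroid array thus both held the motif in these windows.

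Values below are levels, the log2 of the RMA probe set intensity, and differences between levels, on which 1 is a 2-fold difference. Where a gene has several probe sets, the one of highest mean level stands for it, and it entered a comparison if that level reached 6 (an intensity of 64) on any array compared. Of the 8 genes, 6 entered each of the comparisons, and NFKB2 and RELB stayed below 6 on every array. The spheroid, 2D and shGFP conditions had 1 array each, so no difference between them has a replicate check. The arrays labelled shTRIB1 differ in their hairpin, with 1 array per hairpin. Their spread therefore mixes differences of hairpin, cell line and array, which cannot be told apart. Both are set against the same shGFP array, so an SD of their differences holds none of that control array's error. All of these are bulk samples, in which fewer cells of a kind and less RNA per cell cannot be told apart.

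The TRIB1 signal did not set the labelled arrays clearly apart from their control. The arrays labelled shTRIB1-1 and shTRIB1-2 had levels of 11.91 and 11.76, against 11.97 on the shGFP array, a mean difference of -0.13 ± 0.10 (SD, n = 2). Hairpin directions below are therefore those of the labelled arrays. Markers fitted an epithelial line, with KRT8, KRT18, KRT19, EPCAM and CDH1 between 9.39 and 13.19 on all arrays, while 4 blood markers lay between 3.58 and 5.43 and 5 fibroblast markers between 2.71 and 5.78. The androgen target KLK3, listed here as low in PC-3, had the same value of 6.90 on every array. A level somewhat above 6 is therefore not by itself a sign of expression. The TNFAIP3 levels on the shGFP (6.36), spheroid (6.89) and 2D (5.71) arrays lie below that of KLK3. So do the NFKBIE levels on the shTRIB1-2 (6.79), shGFP (6.80) and 2D (6.66) arrays. Among 4 endothelial markers only PECAM1 passed a level of 6, at 9.53 on the spheroid array and 7.57 on the 2D array, and its part in the results was not tested. The ratio of 5′ to 3′ actin signal, a measure of RNA or labelling quality, was 0.436 to 0.445 on the 3 hairpin arrays, 0.131 on the spheroid array and 0.184 on the 2D array.

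TNFAIP3, which encodes A20, was the member that differed most in both of the study's comparisons, and the 1 member of 6 past a 2-fold difference in either. The array labelled shTRIB1-1 had a TNFAIP3 level of 8.43 and that labelled shTRIB1-2 one of 7.67, against 6.36 on the shGFP array. It was 6.89 on the spheroid array, against 5.71 on the 2D array. In order from high to low, the arrays ran shTRIB1-1, shTRIB1-2, spheroid, shGFP and 2D. The labelled arrays were both above all 3 others, and the gap between shTRIB1-2 and spheroid was close to that between the labelled arrays themselves.

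**Figure D1:**
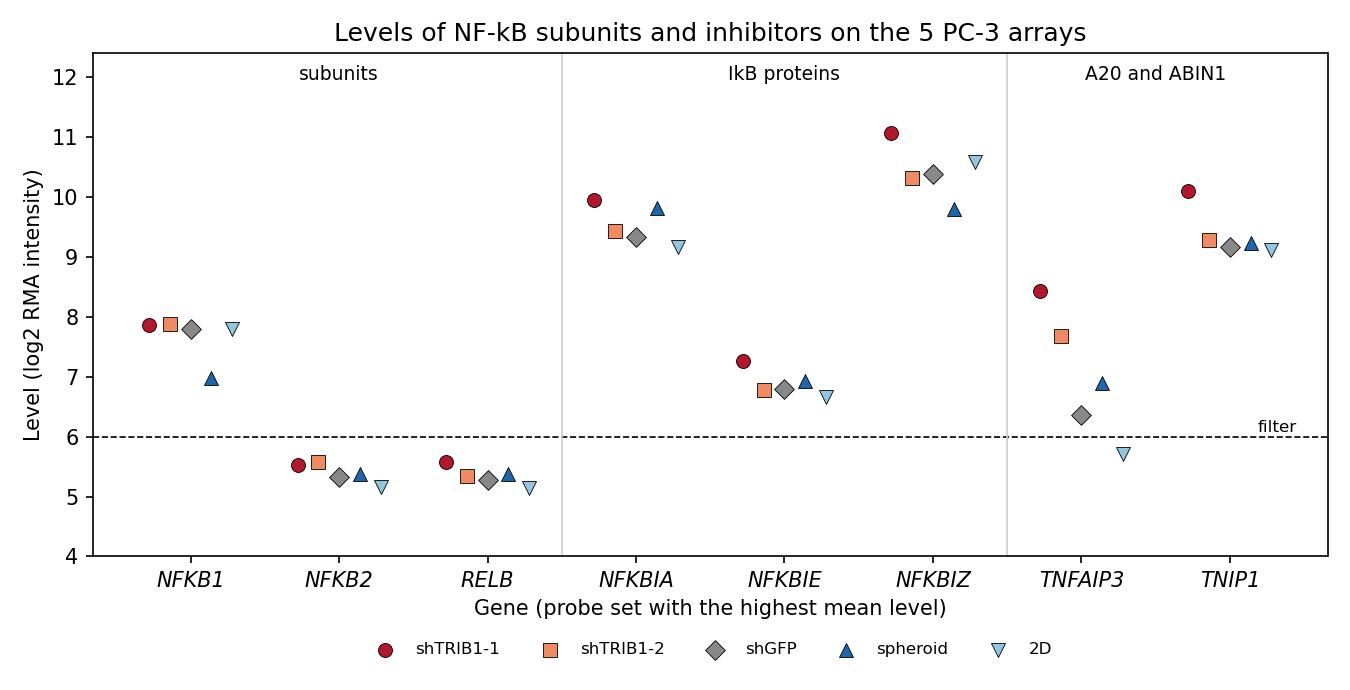
Level (log2 RMA intensity, vertical axis) of 8 genes on each of the 5 arrays, 1 point per array and no error bars because each point is a single array; the dashed line is the level filter of 6. TNFAIP3 is spread most widely, between 5.71 and 8.43, the array labelled shTRIB1-1 is highest for NFKBIA, NFKBIE, NFKBIZ, TNFAIP3, TNIP1 and, below the filter, RELB, and NFKB1 is low on the spheroid array alone.

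Against shGFP, TNFAIP3 was higher by 2.08 (4.22-fold) with the hairpin labelled shTRIB1-1 and by 1.32 (2.49-fold) with that labelled shTRIB1-2, a mean of 1.70 ± 0.54 (SD, n = 2). Among 10522 genes, a 2-fold or larger positive difference on both labelled arrays was seen for 38 (0.361%) and a negative one for 9 (0.0855%). TNFAIP3 was the 1 member among the 6 in the first group, and no member was in the second. Limma had 1 residual degree of freedom, from the labelled arrays alone, and moderated each gene's spread towards an intensity trend over all genes. It gave TNFAIP3 a standard error of 0.48. It called 0 of 10522 genes (0%) at an adjusted p of 0.05 and had 356 genes under an unadjusted p of 0.05, none of them a member. The second TNFAIP3 probe set gave the same picture, at 7.34 and 6.06 in the arrays labelled shTRIB1-1 and shTRIB1-2 and 4.92 on the shGFP array. Its differences were 2.42 and 1.14, the size of which rests on a shGFP signal near background. Both TNFAIP3 probe sets end in _s_at, a suffix for probes that can match more than one transcript.

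The genes of the IkB family and TNIP1 were higher on the array labelled shTRIB1-1 and lay close to shGFP on that labelled shTRIB1-2. TNIP1 encodes ABIN1, a ubiquitin-binding partner through which A20 acts. It was at 10.10 and 9.29 in the arrays labelled shTRIB1-1 and shTRIB1-2 and at 9.16 on the shGFP array, so the first differed by 0.94 and the second by 0.13. NFKBIA, which encodes IkB alpha, the rapidly resynthesised inhibitor, was at 9.95 and 9.43 on those arrays and at 9.33 on the shGFP array. Its differences were 0.62 and 0.11. NFKBIE encodes IkB epsilon, a slower inhibitor of the same kind.

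NFKBIE was at 7.26 and 6.79 in the arrays labelled shTRIB1-1 and shTRIB1-2 and at 6.80 on the shGFP array, differences of 0.46 and -0.016. NFKBIZ encodes IkB zeta, a nuclear member of the IkB family that acts as a coactivator for a subset of NF-kB target genes. Its main probe set was at 11.07 and 10.32 on those arrays and at 10.38 on the shGFP array, differences of 0.69 and -0.061. For NFKBIA, NFKBIE, NFKBIZ and TNIP1, the SD of the hairpin differences (0.36, 0.33, 0.53 and 0.58) was therefore about as large as their mean or larger (0.37, 0.22, 0.31 and 0.53), and limma gave each an adjusted p of 0.958. The second NFKBIZ probe set differed by 0.93 and 0.067, so it was slightly above shGFP on the array labelled shTRIB1-2 where the main one was slightly below.

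The subunit genes differed little between hairpin arrays. NFKB1 encodes p105, the precursor of the DNA-binding subunit p50, and was at 7.86 and 7.89 in the arrays labelled shTRIB1-1 and shTRIB1-2 and at 7.80 on the shGFP array. Its mean difference was 0.076 ± 0.017 (SD, n = 2), with an adjusted p of 0.958 in limma. NFKB2 encodes p100, the precursor of p52 in the noncanonical pathway, and RELB encodes its usual partner. NFKB2 was at 5.53, 5.58 and 5.32 in the arrays labelled shTRIB1-1 and shTRIB1-2 and the shGFP array, and RELB at 5.58, 5.34 and 5.27. Both lie near background on all arrays and entered no count. The remaining NFKB2 probe sets were at or below 4.39, the weak ones of NFKBIA and TNIP1 at or below 4.57, and they carry little information.

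**Figure D2:**
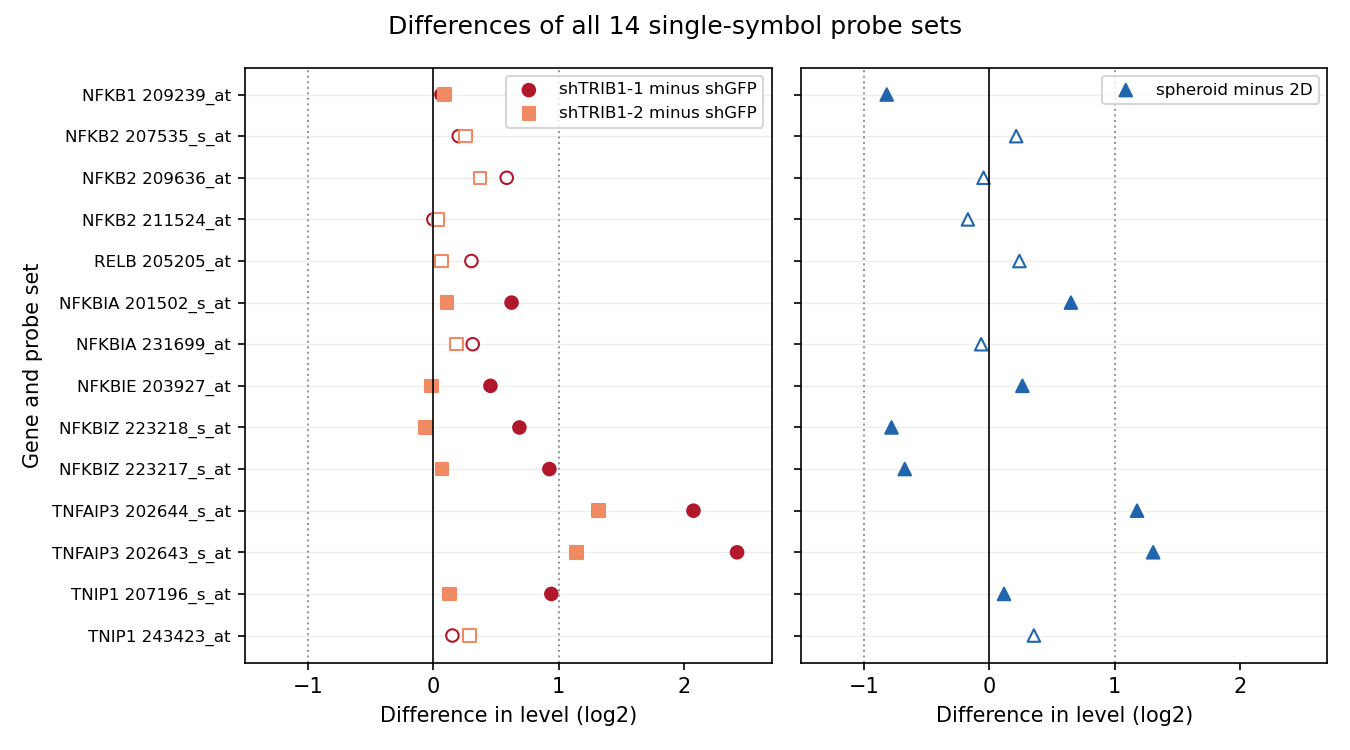
Difference in level (log2, horizontal axis) of each of the 14 probe sets, with the arrays labelled shTRIB1-1 (circles) and shTRIB1-2 (squares) against shGFP on the left and spheroid against 2D (triangles) on the right; filled symbols reach a level of 6 on at least 1 of the 5 arrays and dotted lines mark 2-fold differences. Both TNFAIP3 probe sets lie beyond 1 in every comparison, NFKB1 and both NFKBIZ probe sets lie between -0.82 and -0.67 for the spheroid array, and among the filled symbols the circles lie to the right of the squares for all but NFKB1.

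Over the 6 members the median difference from shGFP was 0.66 on the array labelled shTRIB1-1 and 0.098 on that labelled shTRIB1-2, where the median of all genes was -0.027 and -0.0095. The array labelled shTRIB1-1 was above the array labelled shTRIB1-2 for 5 of the 6 members, compared with 47.3% of all 10522 genes. TNIP1 was higher by 0.81, TNFAIP3 by 0.76, NFKBIZ by 0.75, NFKBIA by 0.51 and NFKBIE by 0.47, while NFKB1 differed by -0.024. The median over the members was 0.63 and that over all genes 0.00. A difference of at least 0.5, a limit chosen after these values were seen, was found for 4 of the 6 members and 8.44% of all genes. With 1 array per hairpin, this difference has no test. The members were chosen with earlier results of these data known, so their shares and medians beside those of all genes support nothing further. The actin ratio was 0.445 and 0.442 on these arrays and the ratio of the bacterial thr spike was 0.269 and 0.217; their part in the difference was not tested.

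**Figure D3:**
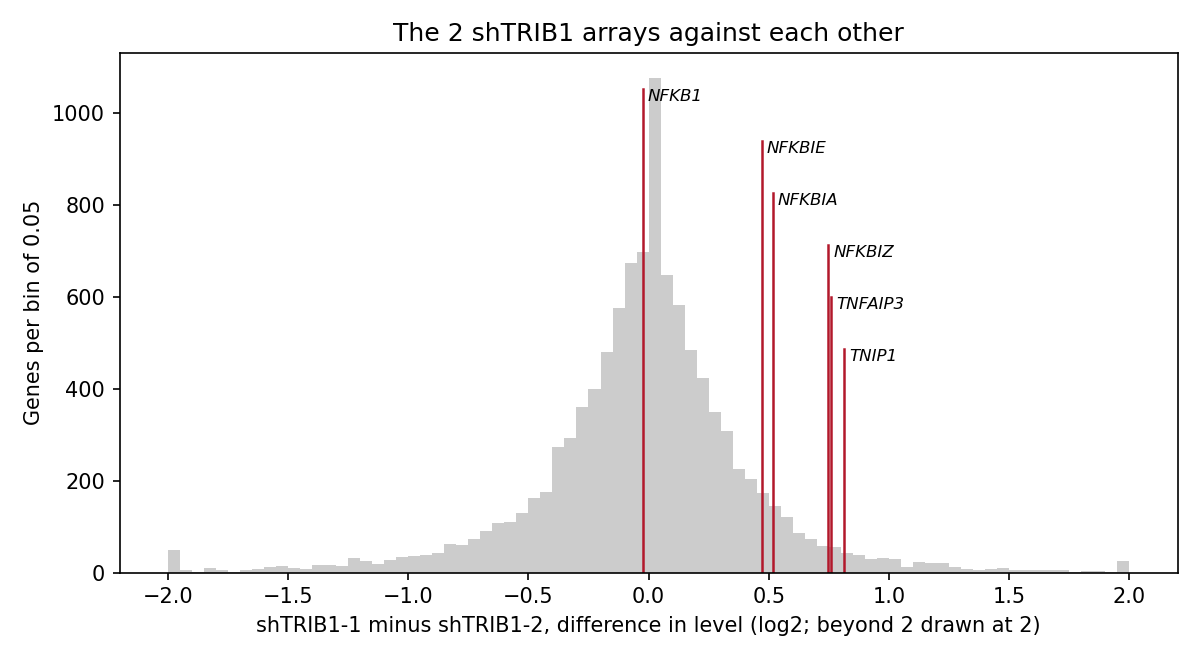
Histogram of the difference in level (log2) between the array labelled shTRIB1-1 and the array labelled shTRIB1-2 over 10522 genes at a level of at least 6, with 6 members marked by red lines whose height has no meaning; values beyond 2 on either side are drawn at 2. The genes other than NFKB1 lie between 0.47 and 0.81, to the right of the bulk of genes, and NFKB1 lies at -0.024.

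Between spheroid and 2D cells the members did not differ in the same direction. TNFAIP3 was higher in the spheroid array by 1.18 (2.27-fold) with its main probe set and by 1.31 with the second, at 5.70 in the spheroid array and 4.39 in the 2D array. The main TNFAIP3 signal was below 6 in 2D, so it entered through the spheroid array alone and the size rests on a signal near background. Its levels on both arrays, 6.89 in spheroid and 5.71 in 2D, lie below that of KLK3 (6.90). NFKBIA was at 9.82 in the spheroid array and 9.16 in the 2D array, a difference of 0.65, which became 0.29 as the median over its probe sets because the weak second one differed by -0.065. NFKBIE was at 6.93 in the spheroid array and 6.66 in the 2D array, and TNIP1 at 9.23 in the spheroid array and 9.11 in the 2D array, differences of 0.26 and 0.12.

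NFKB1 and NFKBIZ were lower in the spheroid array. NFKB1 was at 6.98 in the spheroid array and 7.80 in the 2D array, a difference of -0.82 (0.567-fold), and its 3 hairpin values lay within 0.088 of the 2D value. NFKBIZ was at 9.80 in the spheroid array and 10.58 in the 2D array, a difference of -0.78 (0.582-fold), and its second probe set differed by -0.67. NFKB2 and RELB were at 5.38 each in the spheroid array, and at 5.16 and 5.13 in the 2D array. Among 10570 genes in all, 5.05% exceeded 2D by 2-fold or more in the spheroid array and 5.23% lay below it by as much, and of the 6 members 1 was higher by that rule and none was lower. The members' median was 0.19, compared with -0.0083 for all genes, and it stands between 4 members that were higher and 2 that were lower. There is no replicate and no test, and the actin ratio differed between these arrays too, at 0.131 in the spheroid array and 0.184 in the 2D array; its part was not tested.

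The genes around the members were read from 5 lists of the pathway with 79 genes, of which 73 had a single-symbol probe set. None of the 55 that passed the level filter was at least 2-fold higher, or lower, on both labelled arrays than on shGFP. Limma called none of them, and 3 (5.45%) had an unadjusted p under 0.05, a share near the 3.38% of all genes. These were REL, the gene of the subunit c-Rel, CYLD, a deubiquitinase that restrains NF-kB, and TRAF3, an adaptor that keeps the kinase NIK low, which is named here after its value was seen. REL was at 6.46 and 6.47 in the arrays labelled shTRIB1-1 and shTRIB1-2 and 5.98 on the shGFP array, a mean difference of 0.49 ± 0.0038 (SD, n = 2). REL thus passed the filter through the labelled arrays alone, where it is high, so its difference supports nothing further. These REL levels also lie below that of KLK3 (6.90). CYLD was at 8.12 and 7.94 on those arrays and 7.11 on the shGFP array, a mean of 0.92 ± 0.13 (SD, n = 2). TRAF3 was at 8.73 and 8.81 on those arrays and at 8.03 on the shGFP array, but its 2D value of 8.63 lay close to the labelled arrays.

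The genes of p65, the IkB kinase and NIK were read next. RELA, the gene of the main activating subunit p65, lay between 8.28 and 8.60, and the IkB beta gene NFKBIB at 6.96 on every array. The genes of the IkB kinase subunits, CHUK, IKBKB and IKBKG, were within -0.12 to 0.24 of shGFP on the labelled arrays, and by -0.15 to 0.30 between spheroid and 2D. MAP3K14, which encodes NIK, was at 6.82 and 6.21 in the arrays labelled shTRIB1-1 and shTRIB1-2 and at 5.94 on the shGFP array, differences of 0.89 and 0.27 at a level close to the filter. The 8 receptors above the filter had a median of -0.029 on the array labelled shTRIB1-1 and -0.18 on that labelled shTRIB1-2. On both labelled arrays 4 of them were below shGFP and 1 above. TLR4, named here after its value was seen, differed most, by -0.98 and -1.61. It passed the filter through the shGFP array alone (6.51), where it is high, and that level lies below that of KLK3 (6.90). IRAK2, a kinase of interleukin 1 signalling, was the 1 gene of 17 adaptors and kinases that exceeded 2D by 2-fold or more in the spheroid array, a share near the 5.05% of all genes, at 9.56 in the spheroid array and 7.98 in the 2D array.

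Known target genes also differed between the labelled arrays. The 17 targets above the filter had a median difference from shGFP of 0.48 on the array labelled shTRIB1-1 and -0.15 on that labelled shTRIB1-2. The array labelled shTRIB1-1 was above the other for 13 of them and by at least 0.5 for 9, where the shares over all genes were 47.3% and 8.44%. IL1B, ICAM1, LCN2 and BCL2L1 were the 4 that were not above. CCL20, a chemokine for dendritic and T cells, was at 7.33 and 5.46 in the arrays labelled shTRIB1-1 and shTRIB1-2 and 4.79 on the shGFP array, so it passed the filter through the first alone. SOD2, the mitochondrial superoxide dismutase, was at 9.10 and 7.24 on those arrays and 7.38 on the shGFP array. The neutrophil chemokine CXCL8 was at 11.94 and 10.26 on those arrays and 10.54 on the shGFP array. CCL20, SOD2 and CXCL8 are named as the ones that differed most between the labelled arrays. LTB, at 6.22 and 5.67 on those arrays and 5.75 on the shGFP array, also passed the filter through the array labelled shTRIB1-1 alone. The median of 0.48 is the LTB value. These target counts and medians between the labelled arrays therefore support nothing further. Over all genes, 5.05% lay 2-fold or more above 2D in the spheroid array and 5.23% as far below, with a median of -0.0083. Of 15 targets 7 lay above by that rule and none below, with a median of 0.67. CXCL2, CXCL3, CCL20 and IL6, 4 of the 7, were below 6 in 2D and passed the filter through the spheroid array alone, where they are high, so this count and median support nothing further. LCN2, an iron-sequestering lipocalin, differed by 3.81, IL1B by 3.28, CXCL2 by 2.35 and CCL20 by 2.22.

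**Figure D4:**
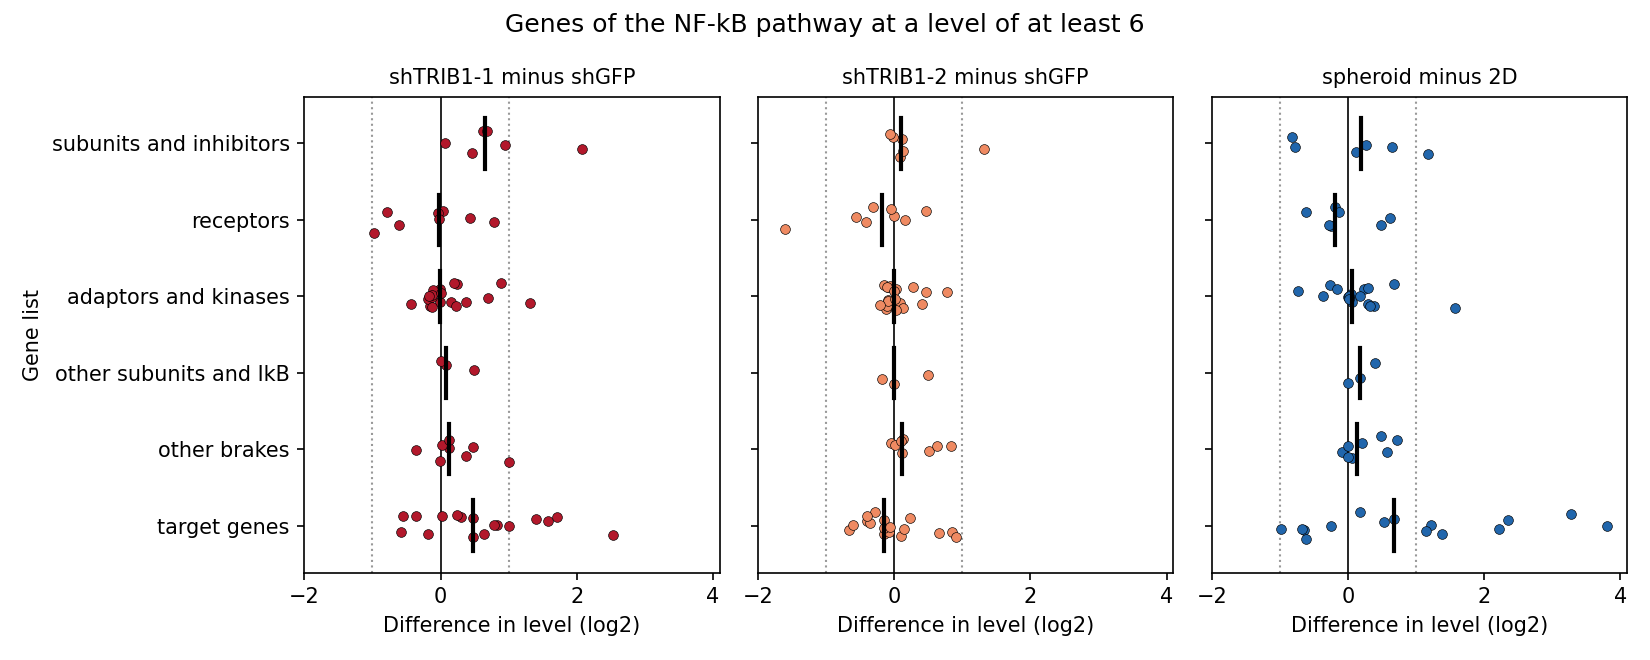
Difference in level (log2, horizontal axis) of genes above the level filter in 6 lists of the NF-kB pathway, 1 point per gene with a small vertical scatter, black bars at list medians and dotted lines at 2-fold differences, for the arrays labelled shTRIB1-1 and shTRIB1-2 against shGFP and for spheroid against 2D. The subunits and inhibitors and the target genes have medians of 0.66 and 0.48 on the array labelled shTRIB1-1 and of 0.098 and -0.15 on that labelled shTRIB1-2, and the receptors -0.029 and -0.18.

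The control line was also set against the parental flat culture. Between shGFP and 2D, the 6 members differed by -0.20 to 0.64, TNFAIP3 the most, and none was 2-fold higher, compared with 2.13% of 10450 genes. The medians were 0.092 for the members and 0.14 for the 15 targets above the filter. Among the targets 5 were at least 2-fold higher in shGFP, and 4 of these, all but CXCL8, were below 6 in 2D and passed the filter through shGFP alone, so the count supports nothing further. They were CXCL2 (8.89 in shGFP and 4.86 in 2D), CXCL3 (8.92 in shGFP and 5.62 in 2D), CXCL1 (9.10 in shGFP and 5.90 in 2D), CXCL8 (10.54 in shGFP and 8.62 in 2D) and IL6 (6.51 in shGFP and 5.16 in 2D). The actin ratio was 0.436 in shGFP and 0.184 in 2D, and array handling and line cannot be told apart in this pair. The spheroid and hairpin comparisons use different control arrays, and this difference lies between those controls.

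The profile of TNFAIP3 over the 5 arrays was compared with that of every other gene after each gene's mean was subtracted. Of 10837 genes, the nearest by root mean square difference were TRIM31, a ubiquitin ligase, at 0.16, the cytokine gene IL6 at 0.24 and the histone deacetylase gene HDAC9 at 0.25, where the median over all genes was 0.99. IL6 was at 8.09 and 7.42 in the arrays labelled shTRIB1-1 and shTRIB1-2 and at 6.51 on the shGFP array, and at 6.53 in the spheroid array and 5.16 in the 2D array. TRIM31 was at 7.67 and 7.20 on the labelled arrays and at 5.93 on the shGFP array, and at 6.14 in the spheroid array and 5.30 in the 2D array. For HDAC9 the likeness is that of 1 chosen probe set, and the median over its 5 probe sets differed from shGFP by 0.0084. TRIM31 and HDAC9 were below 6 on the shGFP and 2D arrays, and IL6 on the 2D array. The likeness thus rests in part on signals near background, for genes picked as nearest on these same 5 arrays.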

How the data were processed

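Total RNA of 5 PC-3 samples was hybridised to 1 Affymetrix array each, with biotin-labelled cRNA, per the labels' protocols. The deposited table holds linear intensities per probe set, made by the authors with RMA, per the submitters' processing notes; the sources used here do not give its version, the chip definition file or the step back from log2. RMA's quantile step gives all arrays nearly the same distribution (median intensity 32.97 to 33.36), so a shift of most genes would not be seen. Arrays have no sequencing depth, and their number limits the precision.

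Log2 was taken with no pseudocount. Names came from the platform annotation: 41097 of 54675 probe sets carried 1 symbol, 1801 several and 11777 none. Entrez identifiers of 41043 matched the RefSeq gene table and updated 0 symbols. For each of 19775 genes the probe set of highest mean over the 5 arrays was kept, with a filter at a level of 6. The hairpin comparison used limma 3.58.1 in R 4.3.3 (intensity trend, Benjamini-Hochberg adjustment over all genes), tested on simulated data first. Comparisons of single arrays had no test. Named genes were the members, TRIB1, 8 core pathway genes, up to 4 genes per pathway list, comparison and direction past 2-fold, and the 3 genes nearest to a member past 2-fold. Members and lists were chosen with earlier results of these data known. The shGFP with 2D comparison and that of the labelled arrays with each other were added after their values were seen. Alternatives were the probe set rule, probe set kind, filter, an offset of 32, the control array, all 5 arrays in the fit, and leaving out each hairpin.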

Additional observations from a re-analysis of the deposited data

How the results depend on the processing

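In the hairpin comparison 1 member, TNFAIP3, stayed past 2-fold on both arrays with the median over probe sets, the offset of 32 and the mean of shGFP and 2D as control. The count was also 1 with no level filter, at a filter of 8 and with either labelled array left out. Dropping the filter leaves the values as they were, and the main rule already asks for both arrays, so those settings could not lower the count. At a filter of 8 TNFAIP3 entered through the array labelled shTRIB1-1 alone (8.43, against 7.67 on shTRIB1-2 and 6.36 on shGFP). Without _s_at and _x_at probe sets the count was 0, because TNFAIP3 then has no probe set and 2 members pass the filter. The members' median of 0.34 ranged from 0.10 without the array labelled shTRIB1-1 to 0.66 without the array labelled shTRIB1-2, and NFKBIE and NFKBIZ turned to -0.016 and -0.061 without the array labelled shTRIB1-1. Limma called 0 genes under each alternative run, with a smallest adjusted p of 0.557 to 0.973. For spheroid against 2D, the count of 1 member past 2-fold became 0 without _s_at and _x_at probe sets, at a filter of 8, with the offset of 32 (TNFAIP3 at 0.84) and against the mean of shGFP and 2D (TNFAIP3 at 0.86). The first 2 settings remove TNFAIP3 from the count. The members' median of 0.19 there was 0.25 as the median over probe sets, 0.23 with no filter, 0.12 at a filter of 8, 0.16 with the offset and 0.15 against the mean of shGFP and 2D. It was -0.28 without _s_at and _x_at probe sets, where NFKB1 and NFKBIE alone remain. Apart from the hairpins left out, none of the 59 values of single members under the alternatives changed sign. The filter settings and the offset could not change a sign, because they leave each value, or the order of the arrays, as it was. Nor could the probe set settings for NFKBIE and NFKB1, which have a single probe set each. Many of the 59 values were therefore fixed in advance. No paired analysis was possible because only the shTRIB1 arrays carry a number, and it names the hairpin. Signals below a level of 6 limit what can be said of NFKB2, RELB and the 2D value of TNFAIP3.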
